A study of Homo sapiens with 6 samples.

Results

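The genes described here are 39 genes of the unfolded protein response and of its ATF4 branch. They were chosen by name, as a pathway list, with earlier results of these data known, so their counts against all genes are descriptions. Every probe set whose platform annotation gives such a gene as its only symbol was used. Of the 39 genes 38 had such a probe set, among 18132 genes in all, and they were covered by 123 of 49293 probe sets. CBS, an enzyme of cysteine synthesis, is not analysed here, because its 6 probe sets also carry the symbol of a near-identical gene copy. The measurements are array values of Huh7 cells, an established human hepatocellular carcinoma line, taken from cultures in logarithmic growth. There were 3 arrays labelled KCa3.1 silenced, with the genotype KCa3.1 knockdown, and 3 arrays labelled control. Both groups were otherwise described alike, and the labels do not say how the knockdown was made or what the control cells received. The labels do not state whether the arrays of a group hold RNA of separate cultures, and the p-values then measure only the spread between these arrays, which may be technical.

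When unfolded proteins build up in the endoplasmic reticulum (ER), membrane sensors start the unfolded protein response. EIF2AK3 (PERK) phosphorylates the translation factor eIF2alpha, which slows general translation while allowing the transcription factor ATF4 to be made. ERN1 (IRE1) splices the mRNA of XBP1, and ATF6 is cut in the Golgi to release a transcription factor. ATF6 and XBP1 are known for inducing chaperones and degradation factors of the ER. ATF4 is known for inducing enzymes and transporters of amino acids, and it can also be raised without ER stress when amino acids are short. Liver cells secrete much protein and depend on this system.

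The deposited values come from the RMA method, are taken as log2 because RMA usually gives that base, and are centred on a baseline of each probe set. A value of 0 is therefore that probe set's baseline and not an absence of signal, and levels of different genes cannot be set side by side. For the same reason 7 liver markers, which Huh7 is known to express, could not be read as present or absent. A gene's value is the mean over its probe sets. Differences are silenced minus control on the log2 scale, tested with limma across all 18132 genes and called at a Benjamini-Hochberg adjusted p under 0.05. KCNN4, which encodes KCa3.1, had values of -0.05, 0.09 and 0.01 on the silenced-labelled arrays and of -0.01, 0.13 and -0.07 on the control arrays. These values overlapped, with a difference of -3e-04 (95% interval -0.16 to 0.16, limma adjusted p = 1, two-sided exact permutation p = 1 where the smallest possible is 0.1). The target gene thus does not bear out the label, and each direction below is between arrays as labelled. Of the 7 liver markers 5 were called higher in the silenced-labelled arrays and 0 lower, against 7.14% and 6.19% of all genes. The changes were 1.14 for APOA1, 0.70 for AFP, 0.40 for SERPINA1, 0.38 for APOB and 0.20 for FGB (limma adjusted p from 3e-05 to 0.042). HNF4A, also chosen as a marker, had no value. ALB and TTR did not pass, at 0.16 and 0.06. Whether this shift of the markers has a part in the results below was not tested. In RNA from whole cultures, fewer cells expressing a gene and less of its RNA in each cell cannot be told apart.

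Of the 10 regulators of the ATF4 branch 4 were called lower, as were 4 of the 8 measured enzymes of amino acid metabolism. Of the 13 ER chaperones 1 was called higher and 12 did not pass, where 15714 of all 18132 genes did not pass. Of the 38 measured genes 10 were lower in the silenced-labelled arrays, against a background of 6.19% of all genes called lower. Only 1 was higher, DNAJB9, against a background of 7.14% called higher, and 27 did not pass. The median change of the 38 genes was -0.11, where that of all genes was -0.01. In 19 of the 38 genes every silenced-labelled array lay below every control array, against 14.4% of all genes. In 2 genes, XBP1 and DNAJB9, every silenced-labelled array lay above every control array, against 15.0% of all genes. At an unadjusted p under 0.05, where 11.9% of all genes were lower and 12.7% higher, 17 of the 38 were lower and 2 higher (limma). The count of 10 lower genes was 6 without silenced replicate 2 and 6 without control replicate 2.

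**Figure D1:**
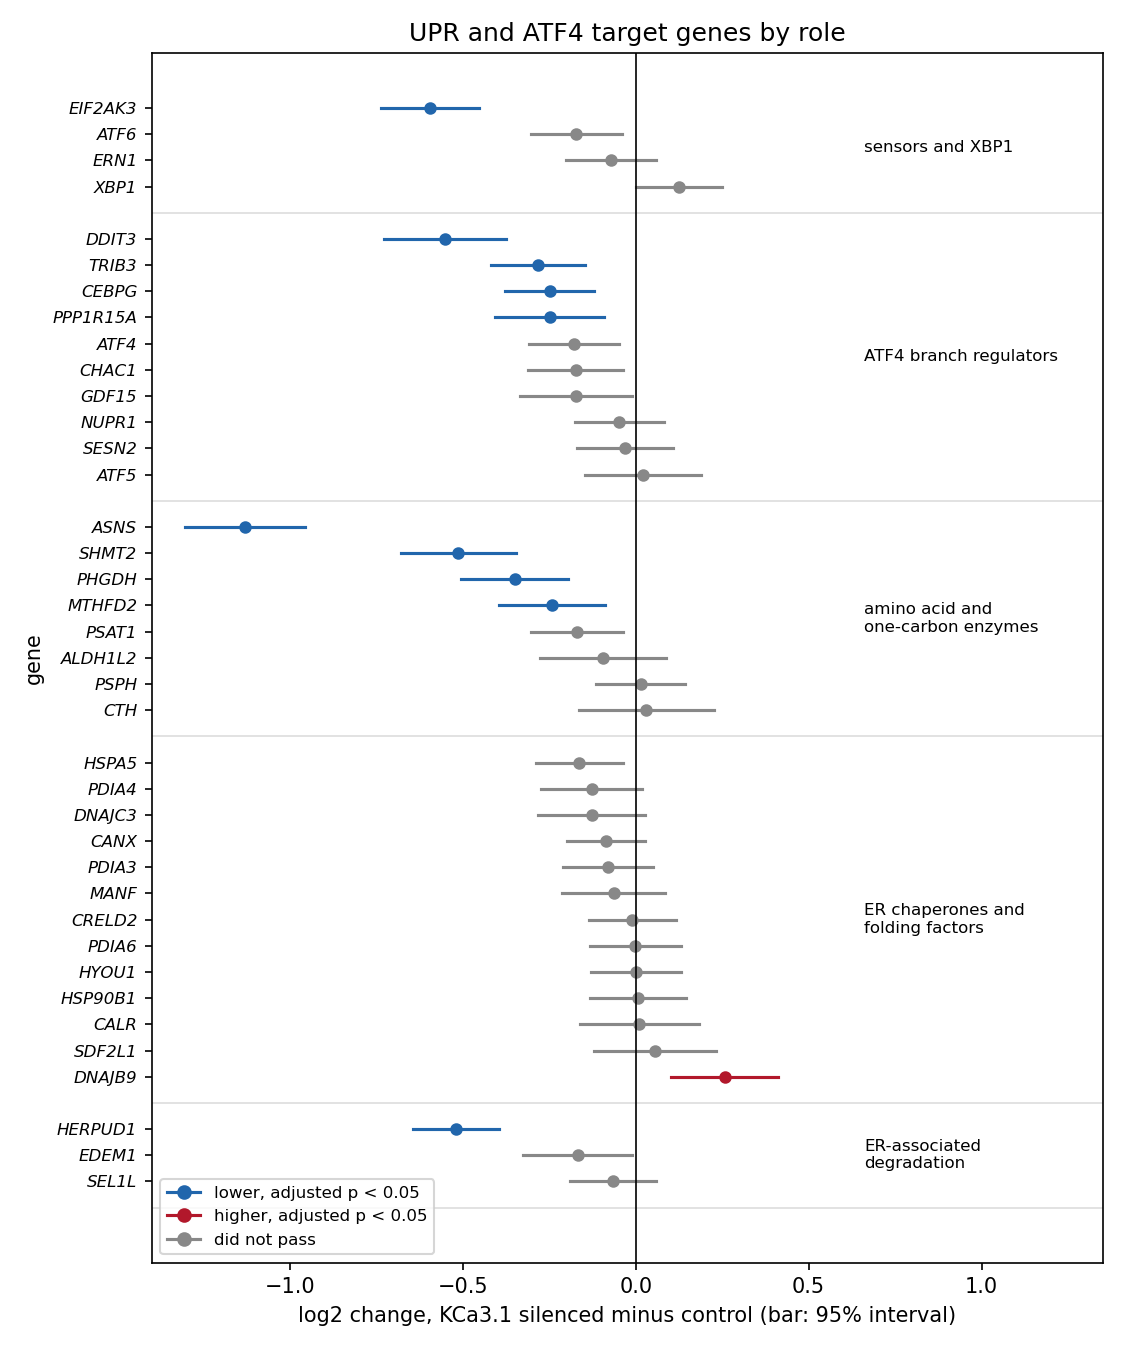
Log2 change of each of the 38 measured genes, silenced-labelled minus control arrays, by role, with bars for the 95% interval of limma (3 arrays per group). Blue genes were called lower, the red gene was called higher and grey genes did not pass. ASNS lies farthest from 0 at -1.13, and the ER chaperones lie between -0.16 and 0.26.

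Among the stress sensors, EIF2AK3 was lower and the other sensor genes did not pass. EIF2AK3 (chromosome 2, GRCh38.p14 88556741 to 88628145) had values of -0.48, -0.63 and -0.45 on the silenced-labelled arrays and of 0.10, 0.05 and 0.08 on the control arrays. The groups were well apart, with means of -0.52 ± 0.10 and 0.07 ± 0.03 (SD, n = 3 each). EIF2AK3 was thus 1.51-fold lower (log2 change -0.595 with SE 0.063, adjusted p by limma = 0.00036). All 3 of its probe sets were called lower, with changes from -0.72 to -0.48.

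ATF6 changed by -0.17 (95% interval -0.30 to -0.04) and did not pass (limma adjusted p = 0.096), though its arrays did not overlap between groups. Its 3 probe sets differed among themselves. The change was -0.37 in 1 that was called lower (limma adjusted p = 0.03), and -0.14 and -0.01 in the other two. ERN1 changed by -0.07 (95% interval -0.20 to 0.06).

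XBP1, the transcription factor activated through ERN1, had values of 0.04, 0.14 and 0.11 on the silenced-labelled arrays and of -0.06, 0.00 and -0.03 on the control arrays. All silenced-labelled values were above the control values, but the difference of 0.12 (SE 0.054) did not pass (limma adjusted p = 0.2). XBP1 was measured by 1 probe set, and the table holds no separate value for its spliced mRNA.

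Of the 10 transcription factors and effectors of the ATF4 branch, 4 were called lower and 0 higher, and the other 6 did not pass (limma). Among all genes 6.19% were called lower and 7.14% higher. At an unadjusted p under 0.05 7 were lower and 0 higher, against 11.9% and 12.7% of all genes. Their median change was -0.18. The lower genes were DDIT3, TRIB3, CEBPG and PPP1R15A. The count of 4 was 1 without replicate 2 of either group and 2 without replicate 3 of either group.

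DDIT3, which encodes the pro-apoptotic transcription factor CHOP, had the largest change of these 10 genes. Its values were -0.51, -0.50 and -0.49 on the silenced-labelled arrays and -0.03, 0.23 and -0.05 on the control arrays. In this mean over probe sets the spread was mostly in the control arrays, with SDs of 0.007 for the silenced-labelled and 0.15 for the control arrays. In the single probe sets these SDs were 0.042 and 0.12, and 0.048 and 0.20. DDIT3 (chromosome 12, 57516588 to 57520517) was 1.47-fold lower (log2 change -0.55 with SE 0.078, adjusted p by limma = 0.0018), with both probe sets called lower. Both are of kinds whose probes can match other transcripts.

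TRIB3, a pseudokinase induced by ATF4 and CHOP, had values of -0.25, -0.36 and -0.25 on the silenced-labelled arrays and of -0.05, 0.06 and -0.02 on the control arrays. The groups did not overlap, and TRIB3 fell by 0.28 (SE 0.060, limma adjusted p = 0.014). Its call was lost without silenced replicate 2 (adjusted p = 0.055) and without control replicate 2 (adjusted p = 0.054).

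CEBPG, a partner of ATF4 at its target sites, had values of -0.04, -0.15 and -0.10 on the silenced-labelled arrays and of 0.11, 0.17 and 0.19 on the control arrays. It fell by 0.25 (SE 0.057, limma adjusted p = 0.019) with no overlap. Its call was lost with the most variable probe set (adjusted p = 0.055) and without silenced replicates 2 or 3 or control replicates 2 or 3. Those left-out arrays gave changes from -0.25 to -0.22 and adjusted p from 0.063 to 0.075.

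PPP1R15A (GADD34) directs the phosphatase that removes the phosphate from eIF2alpha. It had values of -0.22, -0.03 and -0.04 on the silenced-labelled arrays and of 0.23, 0.13 and 0.10 on the control arrays. The groups did not overlap, and the fall of 0.25 (SE 0.069) was just past the threshold (limma adjusted p = 0.047). It rested on 1 probe set, of a kind whose probes can match other transcripts, and its call was lost when any 1 of the 6 arrays was left out (adjusted p from 0.066 to 0.14).

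ATF4 itself had values of 0.06, -0.05 and 0.00 on the silenced-labelled arrays and of 0.12, 0.21 and 0.22 on the control arrays. Each silenced-labelled value was below each control value, but the difference of -0.18 (95% interval -0.31 to -0.05) did not pass (limma adjusted p = 0.081). ATF4 is regulated largely at translation, which an mRNA measurement does not show, and it was measured by 1 probe set, of a kind whose probes can match other transcripts.

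CHAC1, which degrades glutathione, and GDF15, a secreted stress cytokine, also had groups that did not overlap. Their changes were -0.17 and -0.17, and neither passed (limma adjusted p = 0.1 and 0.17). The stress factor genes NUPR1 and SESN2 and the transcription factor gene ATF5 overlapped between groups, with changes of -0.05, -0.03 and 0.02. The 4 probe sets of ATF5 ran both ways, from -0.10 to 0.16.

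Of the 8 measured enzymes of amino acid and one-carbon metabolism, 4 were called lower and 0 higher, and the other 4 did not pass (limma). Among all genes 6.19% were called lower and 7.14% higher. At an unadjusted p under 0.05 5 of the 8 were lower and 0 higher, against 11.9% and 12.7% of all genes. The lower genes were ASNS, SHMT2, PHGDH and MTHFD2, and the median change of the 8 genes was -0.21. ASNS, which makes asparagine from aspartate and glutamine, had the largest change of the 38 genes and ranked at 86 of 18132 genes by size of change. Its values were 0.00, -0.14 and 0.04 on the silenced-labelled arrays and 0.96, 1.17 and 1.16 on the control arrays. The gap between the groups was many times the spread within them, with means of -0.03 ± 0.09 and 1.10 ± 0.12 (SD, n = 3 each). ASNS (chromosome 7, 97851677 to 97928441) was 2.19-fold lower (log2 change -1.13 with SE 0.077, adjusted p by limma = 3.2e-05). All 4 probe sets were called lower, with changes from -1.24 to -1.06.

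Part of the ASNS promoter is shown because it holds the element through which ATF4 is known to act. That element, the C/EBP-ATF response element (CARE), was searched as TGATGNAAN on both strands of the RefSeq promoter table (GRCh38.p14), from 250 bases before to 50 after each start. The stretch is chr7:97872428-97872516 on the minus strand, positions -108 to -20 from the start, with the match in capitals.
ASNS: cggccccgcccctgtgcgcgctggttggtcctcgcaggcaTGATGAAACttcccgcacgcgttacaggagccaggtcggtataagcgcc
CARE matched 4.45% of the 27305 genes with a promoter in that table and 4 of the 34 genes of this pathway list that have one, which are ASNS, CEBPG, CHAC1 and HERPUD1. The changes of these 4 genes ran from -1.13 to -0.17. Of them 3 were called lower (limma), against 6.19% of all genes. A match is a run of letters and not a shown binding site, and the element was defined on genes of this kind, so the count is a description.

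**Figure D2:**
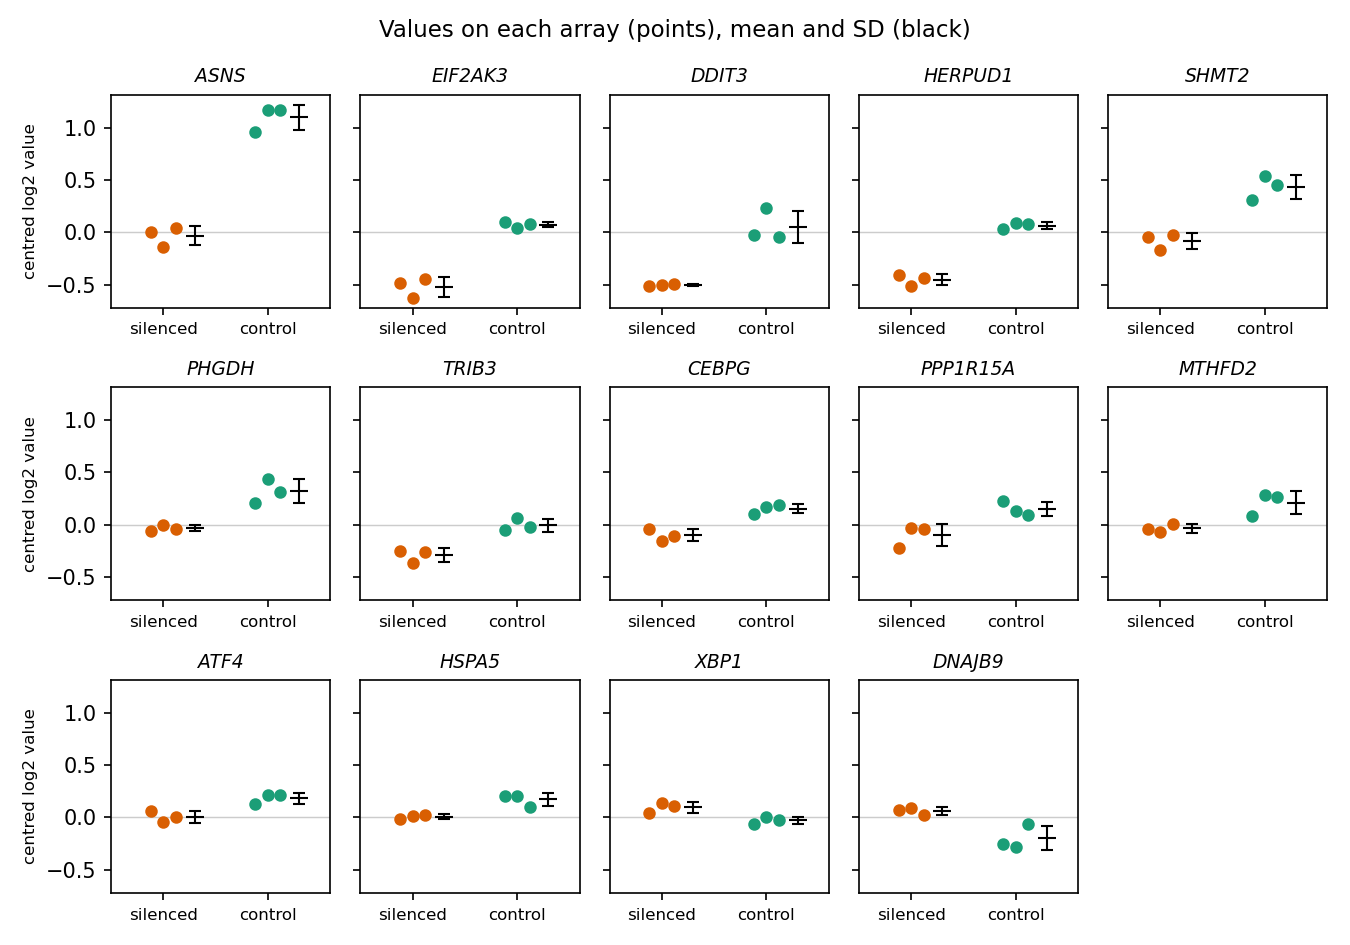
Centred log2 values on each array for the genes called and for ATF4, HSPA5 and XBP1. Orange points are silenced-labelled and green points control arrays, with the mean and SD beside them in black (n = 3 each). In each panel the groups do not overlap, and the gap is widest for ASNS, at means of -0.03 and 1.10.

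SHMT2 and MTHFD2 act in the mitochondrial folate cycle, SHMT2 by splitting serine into glycine and a folate-bound carbon. SHMT2 had values of -0.04, -0.17 and -0.03 on the silenced-labelled arrays and of 0.31, 0.54 and 0.45 on the control arrays. It was 1.43-fold lower with no overlap (log2 change -0.51 with SE 0.073, adjusted p by limma = 0.0019), and all 4 probe sets were called lower, from -0.58 to -0.47. MTHFD2 had values of -0.04, -0.07 and 0.01 on the silenced-labelled arrays and of 0.08, 0.29 and 0.27 on the control arrays. Its fall of 0.24 (SE 0.067, limma adjusted p = 0.045) was close to the threshold, and none of its 5 probe sets passed alone, though all 5 changes were negative, from -0.38 to -0.18. The MTHFD2 call was lost when any 1 array other than control replicate 1 was left out (adjusted p from 0.09 to 0.15). It was also lost with arrays centred and scaled (adjusted p = 0.058) and with quantile normalisation of the deposited columns (adjusted p = 0.061).

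PHGDH, PSAT1 and PSPH carry out the successive steps of serine synthesis, and they differed in size of change. PHGDH had values of -0.06, 0.00 and -0.04 on the silenced-labelled arrays and of 0.21, 0.44 and 0.31 on the control arrays. It was 1.28-fold lower with no overlap (log2 change -0.35 with SE 0.068, adjusted p by limma = 0.009), from 1 probe set. A further PHGDH probe set also carries the symbol MZT2B and was not used. PSAT1 changed by -0.17 (95% interval -0.30 to -0.04) and did not pass (limma adjusted p = 0.1). All 8 of its probe sets had negative changes, from -0.23 to -0.10, and 1 of them was called lower. PSPH changed by 0.01 (95% interval -0.11 to 0.14), with 3 probe sets from 0.003 to 0.03. Differences between these genes were not tested.

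CTH, which releases cysteine from cystathionine, and ALDH1L2, a mitochondrial folate enzyme, did not pass. Their changes were 0.03 (95% interval -0.17 to 0.23) and -0.10 (95% interval -0.28 to 0.09). The CTH value rested on 1 probe set and stood at 0.00 on 4 of the 6 arrays. The 2 probe sets of ALDH1L2 pointed in different directions, at -0.26 and 0.06.

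Of the 13 ER chaperones and folding factors, 0 were called lower and 1 higher (limma), against 6.19% and 7.14% of all genes. At an unadjusted p under 0.05 1 was lower, HSPA5, and 1 was higher, DNAJB9, which is 7.69% each way, against 11.9% lower and 12.7% higher among all genes. The median change was -0.01. The 95% intervals of all 13 genes lay between -0.29 and 0.41. They did not reach the fall of 1.13 measured for ASNS, but those of HSPA5, DNAJC3 and PDIA4 reached -0.29, -0.28 and -0.27 and so include falls of the size called for CEBPG, PPP1R15A and MTHFD2.

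HSPA5 (BiP), the main Hsp70 chaperone of the ER, had values of -0.02, 0.02 and 0.02 on the silenced-labelled arrays and of 0.20, 0.21 and 0.10 on the control arrays. The groups did not overlap, but the difference of -0.16 (95% interval -0.29 to -0.04) did not pass (limma adjusted p = 0.094). All 6 of its probe sets had negative changes, from -0.22 to -0.06, and 0 of them passed. HSP90B1 (GRP94), the Hsp90 of the ER, changed by 0.01 (95% interval -0.13 to 0.14), and its 7 probe sets lay on both sides of 0, from -0.07 to 0.08.

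The calnexin gene CANX was below the control arrays on every silenced-labelled array, with means of -0.083 ± 0.009 and 0.004 ± 0.010 (SD, n = 3 each), but its change of -0.09 did not pass (limma adjusted p = 0.34). CALR, which encodes the related lectin calreticulin, changed by 0.01. Of the disulfide isomerases, PDIA4 changed by -0.13, PDIA3 by -0.08 and PDIA6 by -0.001. The nucleotide exchange factor gene HYOU1 changed by 9e-04, with 9 probe sets from -0.05 to 0.08. DNAJC3, a cochaperone of HSPA5, changed by -0.13, the secreted stress factor MANF by -0.06, CRELD2 by -0.01 and SDF2L1 by 0.06.

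DNAJB9 (ERdj4), an ER cochaperone of HSPA5 and a known target of XBP1, was the only one of the 38 genes called higher. Its values were 0.07, 0.09 and 0.02 on the silenced-labelled arrays and -0.25, -0.28 and -0.07 on the control arrays. The groups did not overlap, and DNAJB9 rose by 0.26 (SE 0.068, limma adjusted p = 0.038). None of its 3 probe sets passed alone, though all 3 changes were positive, from 0.21 to 0.31. All 3 are of the kinds whose probes can match other transcripts. The call was lost without any 1 of the arrays except control replicate 3 (adjusted p from 0.083 to 0.13).

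The promoters of HSPA5 and HSP90B1 are shown as examples of the 6 chaperone genes that hold the ER stress element (ERSE). ATF6 and XBP1 are known to act through it. HSPA5 had the largest change of these in size, but CANX, at -0.09, changed more than HSP90B1, at 0.01. ERSE was searched as CCAAT, 9 bases of any kind and CCACG on both strands, and the matches are in capitals. The HSPA5 stretch is chr9:125241351-125241449 on the minus strand, positions -106 to -8 from the start. That of HSP90B1 is chr12:103930176-103930379 on the plus strand, positions -234 to -31 from the start, and its 2 matches lie on opposite strands.
HSPA5: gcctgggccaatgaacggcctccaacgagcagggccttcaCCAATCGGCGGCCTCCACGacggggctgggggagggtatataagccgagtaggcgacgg
HSP90B1: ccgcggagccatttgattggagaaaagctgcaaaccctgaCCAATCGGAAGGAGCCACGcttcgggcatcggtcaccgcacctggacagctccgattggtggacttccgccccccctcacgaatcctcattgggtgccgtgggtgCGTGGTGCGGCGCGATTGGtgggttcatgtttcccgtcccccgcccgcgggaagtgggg
ERSE matched 25 of the 27305 genes with a promoter, which is 0.0916%, and 7 of the 34 listed genes with one. These were XBP1 and the chaperone genes CALR, CANX, CRELD2, HSP90B1, HSPA5 and PDIA6. Their changes ran from -0.16 to 0.12, and 0 of the 7 passed (limma), where 15714 of all 18132 genes did not pass. Those under an unadjusted p of 0.05 were HSPA5, which was lower, and XBP1, which was higher, against 11.9% and 12.7% of all genes. UPRE, another element known to bind these factors, searched as TGACGTGG, matched HYOU1 alone of the 34, where it overlaps a match to ERSE-II, and 0.927% of all genes with a promoter.

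The 3 genes of ER-associated degradation were headed by HERPUD1, which was lower, while EDEM1 and SEL1L did not pass. HERPUD1 encodes a membrane protein that helps assemble the degradation complex. Its values were -0.41, -0.51 and -0.44 on the silenced-labelled arrays and 0.03, 0.09 and 0.08 on the control arrays. The groups lay far apart, and HERPUD1 (chromosome 16, 56932142 to 56944864) was 1.43-fold lower (log2 change -0.52 with SE 0.055, adjusted p by limma = 0.00036). Of its 4 probe sets 3 were called lower, with changes from -0.75 to -0.65. The other one, of a kind whose probes can match other transcripts, changed by 0.04. Without it the change of the gene was -0.71.

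HERPUD1 is shown as well, chosen after its values were seen, because its promoter was the only one of the 34 that held both a CARE match and a match to ERSE-II, a shorter relative of ERSE searched as ATTGG, any base and CCACG on both strands. The stretch is chr16:56931925-56932075 on the plus strand, positions -217 to -67 from the start, with the CARE match first, on the opposite strand, and the ERSE-II match after it.
HERPUD1: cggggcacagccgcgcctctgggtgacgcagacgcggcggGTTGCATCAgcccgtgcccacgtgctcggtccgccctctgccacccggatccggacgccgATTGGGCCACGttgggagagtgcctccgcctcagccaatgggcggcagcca
ERSE-II matched 0.0696% of genes with a promoter and 3 of the 34 listed genes, which are HERPUD1, HYOU1 and SDF2L1. HYOU1 and SDF2L1 did not pass, at changes of 9e-04 and 0.06.

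EDEM1, a lectin-like protein that takes misfolded glycoproteins out of the folding cycle, changed by -0.17 with no overlap between groups (95% interval -0.33 to -0.01, limma adjusted p = 0.17). Among its 5 probe sets 4 had negative changes, from -0.24 to -0.20, and 1 changed by 0.05, and 0 of them passed. SEL1L, the partner of the ubiquitin ligase SYVN1, changed by -0.07 (95% interval -0.19 to 0.06). Of its 4 probe sets 2 had negative and 2 positive changes.

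Set side by side, the enzymes of amino acid and one-carbon metabolism and the ER chaperones differed in their counts. Of the enzymes 4 of 8 were called lower, and of the chaperones 0 of 13, against 6.19% of all genes. The chaperone count is thus close to that share. MTHFD2, 1 of the 4 enzymes, kept its call under 3 of the 13 alternative analyses described below. The median value of the enzymes was -0.04, -0.08 and 0.01 on the silenced-labelled arrays and 0.12, 0.22 and 0.19 on the control arrays, with no overlap. The median value of the chaperones was 0.00, 0.00 and 0.02 on the silenced-labelled arrays and -3e-04, 0.08 and 0.08 on the control arrays, where the groups overlapped through control replicate 1. The median change was -0.21 for the enzymes and -0.01 for the chaperones. The chaperone median was -0.07 without control replicate 1. No test was made between the 2 groups of genes, whose members were chosen with results of these arrays known.

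The same test was made on single probe sets. Of the 123 probe sets 21 were called lower and 0 higher, and 102 did not pass (limma over 49293 probe sets, where 4.85% were called lower and 5.82% higher). Of the 123, 45 were lower and 3 higher at an unadjusted p under 0.05, against 10.7% and 11.8% of all probe sets. Of the 30 genes with several probe sets, 19 had changes of 1 sign in all of them, and 0 had probe sets called in opposite directions. In EIF2AK3, DDIT3, ASNS and SHMT2 every probe set was called lower.

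**Figure D3:**
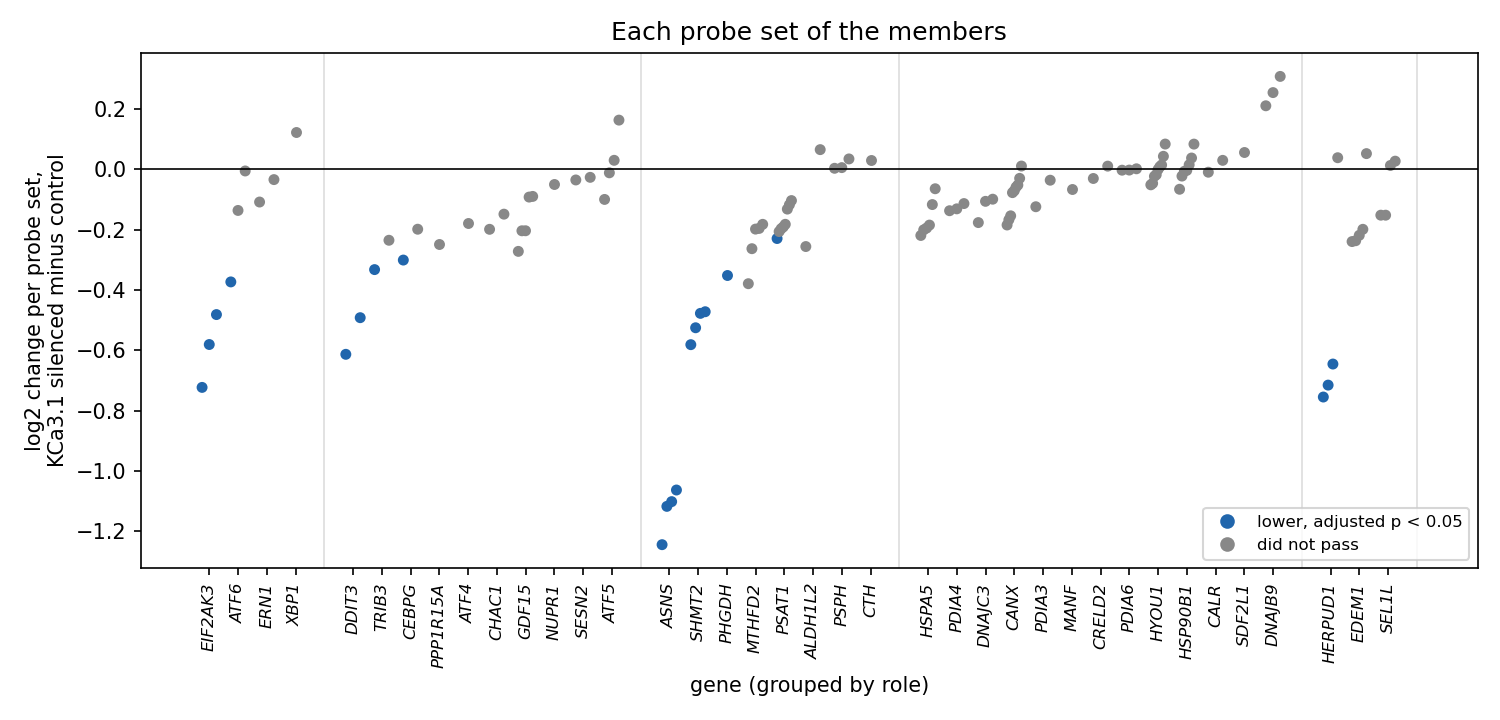
Log2 change of each of the 123 probe sets, silenced-labelled minus control arrays, with genes grouped by role from left to right as sensors, ATF4 branch, enzymes, chaperones and degradation. Blue points were called lower (21) and grey points did not pass (102). The probe sets of ASNS lie together between -1.24 and -1.06, while 1 of the 4 probe sets of HERPUD1 lies apart from the others.

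Further genes of the same pathways were described from 6 lists, each taken whole. Of 10 amino acid transporters 5 were called lower and 0 higher, and the other 5 did not pass. Among all genes 6.19% were called lower and 7.14% higher. At an unadjusted p under 0.05, the cut that 11.9% of all genes passed as lower and 12.7% as higher, 6 transporters were lower and 0 higher. SLC3A2, the shared heavy chain of several transporters, changed by -0.63 and its partner SLC7A5 by -0.62, with the arginine transporter gene SLC7A1 at -0.56 (limma adjusted p = 0.00022, 0.00016 and 0.0061). SLC7A5 had values of -0.04, -0.09 and 0.00 on the silenced-labelled arrays and of 0.52, 0.59 and 0.62 on the control arrays. SLC7A11, the cystine transporter gene, did not pass, at -0.11. The median of the 10 genes was -0.23.

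Of 12 tRNA synthetases, many of which ATF4 is known to induce, 2 were called lower and 0 higher, and the other 10 did not pass. That is 16.7% lower, where 6.19% of all genes were called lower and 7.14% higher. The median change was -0.07. At an unadjusted p under 0.05 5 were lower and 0 higher (limma), against 11.9% and 12.7% of all genes. WARS1 fell by 0.30 and GARS1 fell by 0.23 (limma adjusted p = 0.0061 and 0.022). The call of GARS1 was lost without any 1 array other than control replicate 1 (adjusted p from 0.055 to 0.074). Of 14 further ATF4 targets 4 were called lower and 2 higher, and the other 8 did not pass. That is 28.6% lower and 14.3% higher, against the same 6.19% and 7.14% of all genes. The median was -0.07, and 4 were lower and 3 higher at an unadjusted p under 0.05, against 11.9% and 12.7% of all genes. The hormone gene STC2 changed by -1.15, the transcription factor gene JDP2 by -0.77 and the mTORC1 inhibitor gene DDIT4 by -0.64 (limma adjusted p = 8.1e-05, 0.0016 and 0.0076). The higher genes, named after their values were seen, were KLHL24 at 0.63 and the autophagy receptor gene SQSTM1 at 0.22.

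Of 20 further genes of ER folding and translocation 3 were called lower and 1 higher, and the other 16 did not pass. That is 15% lower and 5% higher, against 6.19% and 7.14% of all genes. The median was -0.02, and 4 were lower and 2 higher at an unadjusted p under 0.05, against 11.9% and 12.7% of all genes. The disulfide isomerase gene P4HB fell by 0.27 and its oxidase gene ERO1A fell by 0.25, while ERO1B, a relative of ERO1A, rose by 0.22 (limma adjusted p = 0.017, 0.017 and 0.024). The calls of P4HB and ERO1A were lost without silenced replicates 2 or 3 and without control replicate 2 for P4HB or 3 for ERO1A (adjusted p from 0.055 to 0.067). That of ERO1B was lost without any 1 array other than control replicate 1 (adjusted p from 0.053 to 0.087).

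Of 12 further degradation genes 1 was called lower and 0 higher, against 6.19% called lower and 7.14% higher among all genes. At an unadjusted p under 0.05 1 was lower and 1 higher (limma), which is 8.33% each way, against 11.9% and 12.7% of all genes. The lower gene was SELENOS, which encodes a membrane selenoprotein of the degradation complex and fell by 0.25 (limma adjusted p = 0.017). Its call was lost without silenced replicates 1 or 3 or control replicate 2 (adjusted p from 0.057 to 0.072). The median of those 12 genes was -0.03.

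Of 19 further signalling genes 1 was called lower and 3 higher, and the other 15 did not pass. That is 5.26% lower and 15.8% higher, against 6.19% and 7.14% of all genes. The median was -0.005, and 3 were lower and 4 higher at an unadjusted p under 0.05, against 11.9% and 12.7% of all genes. EIF2S1, which encodes the eIF2alpha phosphorylated by PERK, had values of 0.17, 0.12 and 0.15 on the silenced-labelled arrays and of -0.48, -0.51 and -0.37 on the control arrays. The groups lay far apart, and EIF2S1 rose by 0.60 (SE 0.057, limma adjusted p = 0.00021). PPP1R15B encodes the constitutive counterpart of PPP1R15A in the eIF2alpha phosphatase. It had values of 0.17, 0.02 and 0.09 on the silenced-labelled arrays and of -0.57, -0.43 and -0.43 on the control arrays, and it rose by 0.57 (SE 0.065, limma adjusted p = 6e-04). MBTPS2, a protease that cuts ATF6, rose by 0.39 (limma adjusted p = 0.0034). The lower gene, named after its values were seen, was CREB3 at -0.33. The kinases that share PERK's substrate did not pass, at -0.005 for EIF2AK1, -0.006 for EIF2AK2 and -0.17 for the amino acid sensor EIF2AK4.

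**Figure D4:**
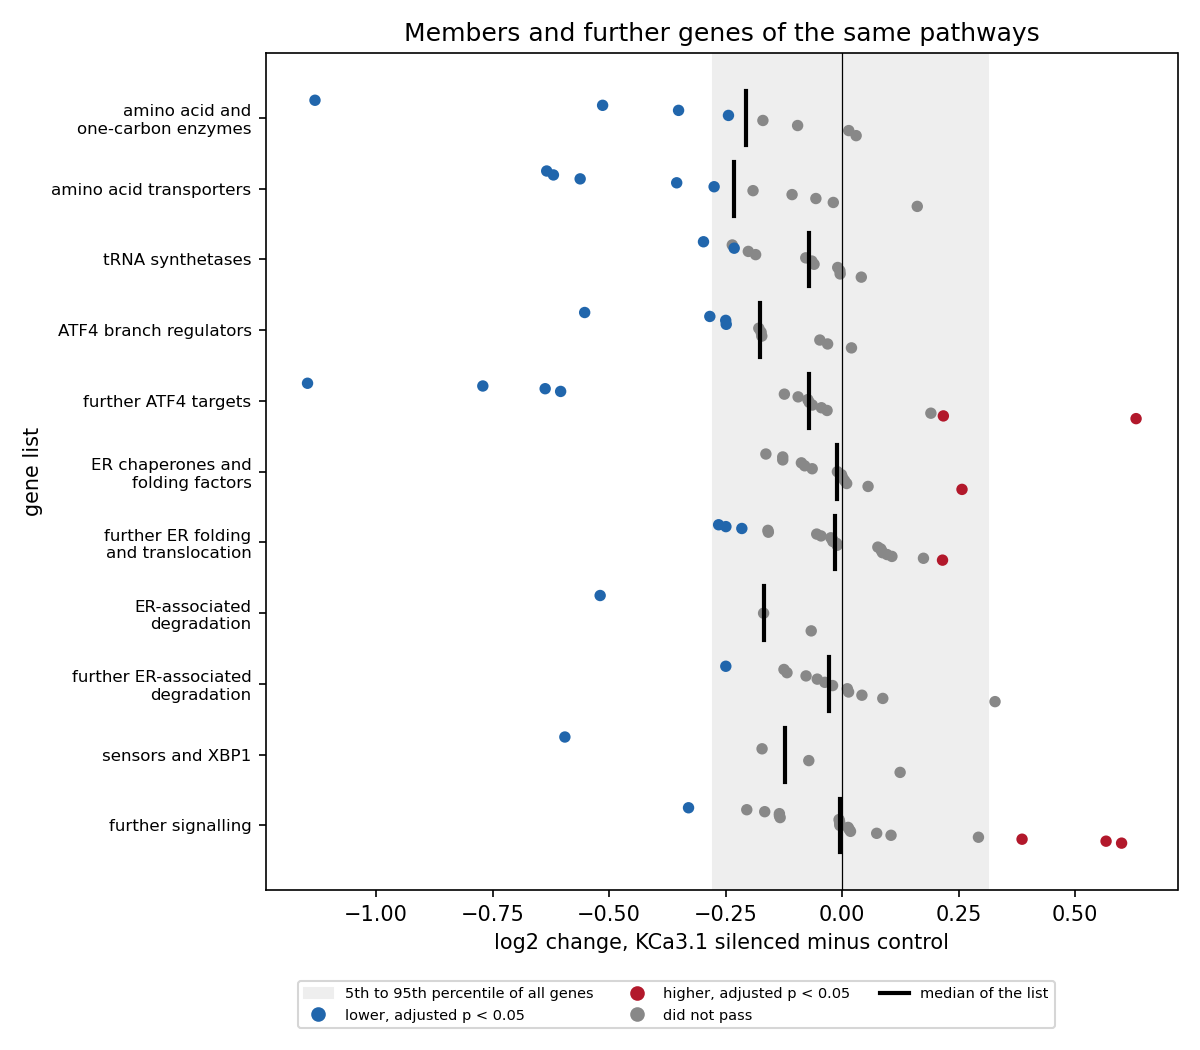
Log2 change of each gene, silenced-labelled minus control arrays, in the 5 groups of listed genes and in 6 lists of further pathway genes, with the median of each list as a black bar. Blue, red and grey mark lower, higher and not passing, and the shaded band spans the 5th to 95th percentile of all 18132 genes, -0.28 to 0.31. The medians of the enzymes and the amino acid transporters lie at -0.21 and -0.23, and that of the ER chaperones at -0.01.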

How the data were processed

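RMA, a method that corrects background, normalises by quantiles and summarises probe sets, produced the deposited log2 values, per the submitters' processing notes. Its version is not given in the sources used here. The centring per probe set was read from the values, and base 2 was assumed because RMA usually gives it. Centring cancels in a difference between groups. Of 49395 probe sets 102 control probe sets were left out. Probe sets with 1 symbol in the platform annotation (44988) were averaged per gene, and 0 symbols changed through the RefSeq gene table. Exact zeros fill 17% to 21.1% of each array, which can narrow the spread within a group. All 6 arrays entered a limma fit without a block (limma 3.58.1, R 4.3.3). The number of arrays, 3 per group, limits the precision. On simulated data for this comparison with 18132 genes, the script recovered 72% of 100 genes changed by 0.5 and 99% of 100 changed by 1. It also called 7 unchanged genes at each size. Smaller changes, such as those of CEBPG, MTHFD2 or HSPA5, were not simulated.

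The genes, roles, lists and motifs were chosen with earlier results of these data known. Values on each array were given for ATF4, DDIT3, ASNS, XBP1 and HSPA5, for each gene called and for the largest change in each role. Of each further list, the 3 largest called changes were named. Beyond these rules, array values were given for KCNN4 as the target and for SLC7A5, EIF2S1 and PPP1R15B. KLHL24, SQSTM1, CREB3, SLC7A11, EIF2AK1, EIF2AK2 and EIF2AK4 were also named beyond them. Alternatives were other probe set summaries, 2 scalings, a variance filter, a replicate block, robust empirical Bayes and leaving out each array. Promoters come from RefSeq (GRCh38.p14).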

Additional observations from a re-analysis of the deposited data

How the results depend on the processing

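Of the 11 called genes, 6 (ASNS, EIF2AK3, DDIT3, HERPUD1, SHMT2 and PHGDH) were called under each of the 13 alternatives that gave them a value, and ASNS changed by -1.24 to -1.04. The other 5 each lost their call under some alternative, and the cause was not tested. The count of lower genes was 10, 7 with the replicate block, 8 to 10 under the other alternatives that keep all arrays, and 6 to 9 without 1 array. The count of higher genes, which is also that of higher chaperones, was 0 with the replicate block, with the most variable probe set and among the genes above the median variance, and 0 to 1 without 1 array. It was also 0 with the more specific probe sets, where DNAJB9 has no value. Lower ATF4 branch regulators numbered 2 with the replicate block and with the most variable probe set, and 1 to 3 without 1 array. They numbered 2 with the more specific probe sets, where DDIT3 and PPP1R15A have no value. The median of the enzymes was -0.304 with the most variable and -0.288 with the more specific probe sets. The median of the chaperones was 0.056 in the variance-filtered genes and -0.068 to -0.006 without 1 array. Lower genes of all 18132 numbered 736 to 1167 without 1 array, and higher probe sets of the listed genes 0 to 1. KCNN4 passed nowhere it had a value, with changes from -0.044 to 0.055. No pairing by replicate number was seen. The deviations of same-numbered arrays from their group means correlated with r from -0.096 to -0.04. Each array's deviations correlated best with those of a differently numbered array of the other group (r from 0.373 to 0.381). With 3 arrays per group these deviations depend on each other, so the correlations cannot settle whether arrays were paired. What the better correlated arrays share was not tested, and the main fit has no block for it. With the replicate block CEBPG, PPP1R15A, MTHFD2 and DNAJB9 had no call (adjusted p from 0.054 to 0.089).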
